A study of Homo sapiens with 12 samples.

Results

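The genes described here encode the proteasome: the subunits of its core particle, of its regulatory particle and of its activators, and the chaperones that put it together. Genes were taken by name, as every listed gene whose symbol begins with PSMA, PSMB, PSMC, PSMD, PSME or PSMG followed by a digit, leaving out the immunoproteasome subunits PSMB8, PSMB9 and PSMB10, pseudogenes and hyphenated names. This gave 44 genes of the 12372 listed for either cell line, and each of the 44 was listed in both lines. Of these, 42 are proteasome components: 7 subunits of the α ring, 3 catalytic and 4 other subunits of the β ring, 6 ATPases and 3 other subunits of the base, 8 subunits of the lid, 7 assembly chaperones and 4 activators. The other 2, PSMC3IP and PSME3IP1, match by name and are partners of proteasome proteins, and are described apart.

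Transcripts were measured by mRNA sequencing in 23132/87, an established gastric adenocarcinoma line, and SW48, an established colorectal adenocarcinoma line. Treated cultures were held for 48 h in 10 µM myricone C, a compound of Myristica fragrans that the series title calls a neolignan, and their controls for the same 48 h in 0.1% DMSO, the vehicle. The 4 groups held 3 biological replicates each, 12 libraries in all, and both lines are given as wild type. The comparisons set myricone C beside vehicle in each line in turn, and then ask whether that response differed between the lines.

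The proteasome is the main protease of the cytosol and nucleus. Its core is a barrel of stacked α and β rings with the proteolytic sites on the inner faces of the β rings, and it is capped by a regulatory particle whose base unfolds substrates with a ring of ATPases and whose lid removes their ubiquitin chains. When proteasome activity falls short, human cells are known to raise the transcription of its subunit genes through the transcription factor NFE2L1, which pairs with small MAF proteins and binds antioxidant response elements in subunit promoters.

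Because that route is known from subunit promoters, the 250 bases before the RefSeq start of each component gene (GRCh38.p14) were searched on both strands for the core of the element, TGACNNNGC, and for the CCAAT box, CCAAT; neither motif contains the other. An entry was found for 36 of the 42 components. The element core lay in 12 of the 36 (33.3%), against 15.9% of the 9709 listed genes with an entry and 13.2% of all 27305 promoters. CCAAT lay in 17 of 36 (47.2%), against 41.4% of listed genes and 37.0% of all promoters. A match is a description of letters and not a binding site. The stretches around 5 matches are shown because their genes cover the range of responses described here: PSMB3 was lower in both lines, PSMD3 in 23132/87 and PSME1 in SW48, and PSMD12 and PSME4 passed the test in neither line. Capitals mark the match and each stretch is read 5′ to 3′ on the strand of its gene; that of PSME4 holds the match on the other strand.
PSMB3 (chr17:38752613-38752669, plus strand, match starting 104 bases before the RefSeq start): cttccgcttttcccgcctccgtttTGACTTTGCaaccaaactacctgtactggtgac
PSMD3 (chr17:39980746-39980796, plus strand, match 37 bases before): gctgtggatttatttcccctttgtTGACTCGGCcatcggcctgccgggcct
PSME1 (chr14:24136084-24136140, plus strand, match 86 bases before): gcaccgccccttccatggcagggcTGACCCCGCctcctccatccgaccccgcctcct
PSMD12 (chr17:67366710-67366766, minus strand, match 165 bases before): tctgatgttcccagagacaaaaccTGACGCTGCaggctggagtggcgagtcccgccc
PSME4 (chr2:53970995-53971051, minus strand, match 34 bases before): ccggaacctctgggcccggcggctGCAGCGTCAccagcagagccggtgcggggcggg

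The deposited value is a signal per gene that was scaled by the authors and resembles FPKM or TPM, so that levels are compared between groups of 1 line and not between genes or lines. Read depth is unknown. The listed signal of a library summed to between 464037 and 536594, and mitochondrial pseudogenes took between 13.4% and 18.1% of it. SW48 myricone C replicate 1 stood apart, where 7SL and small nuclear RNA genes held 5.26% of the signal; the remaining SW48 libraries had 0.0490% to 0.204%. Without that library 13 of the 42 components (31.0%), in place of 14 (33.3%), were called in SW48, all lower. The share of all genes lower was 20.1% without it and 19.2% with all libraries. The epithelial markers EPCAM, CDH1, KRT8, KRT18 and KRT19 were listed in both lines, the leukocyte and endothelial markers searched for were listed in neither, and of the fibroblast markers COL1A1 was listed, in 23132/87, at 11.5, 8.62 and 10.3 in myricone C libraries, against 13.5, 11.9 and 9.39 in vehicle libraries. Of 24 cell type markers, 11 were listed in 23132/87, where 6 were lower and 1 higher with myricone C and their summed signal ranged over 3295 to 4537 in myricone C libraries and 8536 to 11142 in vehicle libraries. In SW48 8 were listed, of which 1 was lower and 5 higher, and the sums ranged over 2812 to 3988 in myricone C libraries and 1069.8 to 1837 in vehicle libraries. The part of these marker changes in the proteasome results was not tested.

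Proteasome genes took a smaller share of the signal after myricone C in both lines. The 42 components held 0.651%, 0.636% and 0.645% of the signal of the myricone C libraries of 23132/87, against 0.690%, 0.746% and 0.747% in its vehicle libraries. In SW48 they held 0.642%, 0.689% and 0.628% in myricone C libraries, against 0.773%, 0.733% and 0.797% in vehicle libraries. The groups did not overlap in either line, and they also stood apart when mitochondrial pseudogenes, 7SL and small nuclear RNA genes were left out of the sums, at 0.742% to 0.761% in myricone C libraries and 0.798% to 0.886% in vehicle libraries of 23132/87, and at 0.726% to 0.808% and 0.882% to 0.974% in those of SW48. With 3 libraries a group an exact two-sided permutation test cannot go below p = 0.10, and none is given. Fewer cells of a kind and less RNA of these genes per cell cannot be told apart in bulk RNA.

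**Figure D1:**
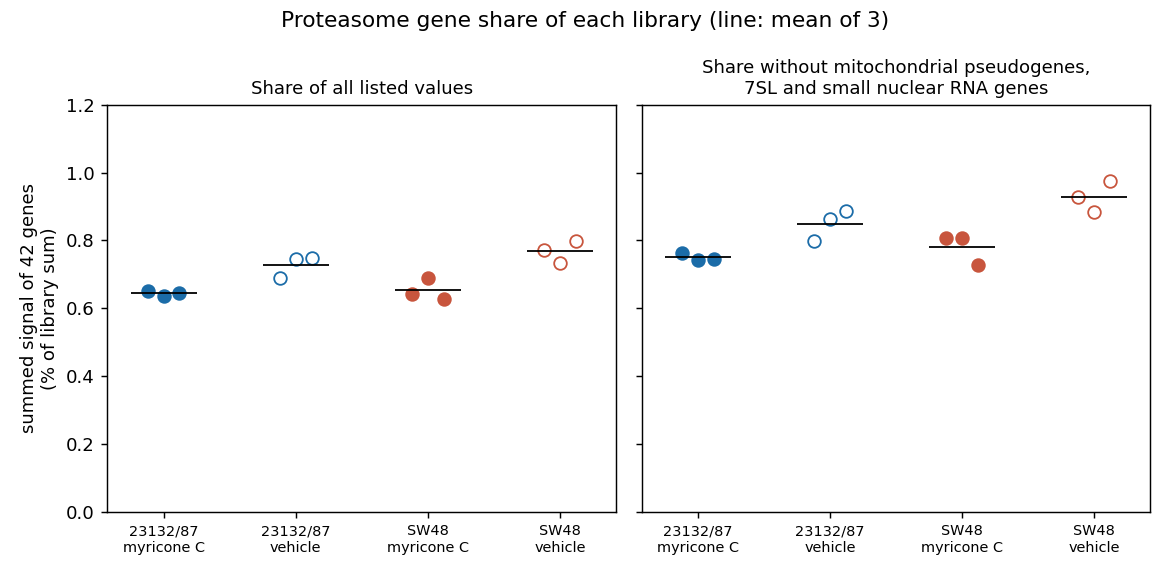
Summed signal of the 42 proteasome components in each library, as a percentage of all listed signal (left) and of the signal without mitochondrial pseudogenes, 7SL and small nuclear RNA genes (right). Filled circles are myricone C libraries, open circles vehicle libraries, and lines the mean of 3; in both panels every myricone C library of a line lies below every vehicle library of that line.

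Gene by gene, the test was limma on log2(signal + 1), fitted over all genes of a line with Benjamini-Hochberg adjustment, and a gene was called at adjusted p under 0.05. All changes are given as log2 differences on that scale, myricone C minus vehicle, with the standard error of the fit. In 23132/87, 13 of the 42 components (31.0%) were lower, against a background of 23.2% of the 11070 genes tested, and 0 were higher, against 23.3% of all genes. In SW48, 14 of 42 (33.3%) were lower, against a background of 19.2% of 11554 genes, and 0 were higher, against 10.1%. Under quantile normalization the counts lower were nearer the background, with 10 (23.8%) in 23132/87, against 22.8% of genes, and 8 (19.0%) in SW48, against 15.3%. In SW48 the count was 7 (16.7%) without vehicle replicate 3, against 13.1% of genes, and 6 (14.3%) with the replicate block by the numbers in the column names, below the 15.2% of genes lower in that fit. At an unadjusted p under 0.05, 19 components were lower and 0 higher in 23132/87, and 21 were lower and 0 higher in SW48. Of all genes, 2957 of 11070 were lower and 3014 higher at that threshold in 23132/87. In SW48 3072 of 11554 genes were lower and 1731 higher. Under median-centred scaling 19 components (45.2%) were lower in 23132/87, against 25% of genes, and 12 (28.6%) in SW48, against 16.4%. With all 12 libraries in 1 fit 14 (33.3%) were lower in 23132/87, against 23.1% of genes, and 21 (50%) in SW48, against 22.6%. That fit held the 10252 genes listed in both lines. The background rises with expression. With the genes tested limited to those reaching 10 in at least 3 libraries, which all 42 components did, 15 components (35.7%) were lower in 23132/87, against 29.2% of genes, and 17 (40.5%) in SW48, against 26% of genes.

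Most of the remaining components also had negative estimates, of small size. The component median was -0.17 in 23132/87, over a range of -1.02 to 0.45, beside a median of 0.01 over all genes tested. In SW48 the median was -0.25, over a range of -0.73 to 0.19, beside -0.08 over all genes. The estimate was negative for 36 of 42 components (85.7%) in 23132/87, against 48.7% of all genes. In SW48 it was negative for 40 of 42 (95.2%), against 58.7% of all genes. All myricone C libraries lay below all vehicle libraries for 18 components in 23132/87 (42.9%), against 27.9% of all genes, and for 25 in SW48 (59.5%), against 28.4% of all genes. Quantile normalization brought the component median to -0.04 in 23132/87, with 27 of 42 negative, and to -0.14 in SW48, with 34 of 42 negative. The medians over all genes were then 0.01 and -0.02. After rescaling without mitochondrial pseudogenes, 7SL and small nuclear RNA genes the component median was -0.08 in 23132/87, with 27 of 42 negative. In SW48 it was -0.19, with 37 of 42 negative. The medians over all genes were 0.09 and -0.02 after that rescaling. The share of all genes with a negative estimate was not computed under either alternative. Under quantile normalization PSMA3, an α ring subunit, was called higher in 23132/87. PSMD10, an assembly chaperone, was called higher there after rescaling without mitochondrial pseudogenes, 7SL and small nuclear RNA genes.

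**Figure D2:**
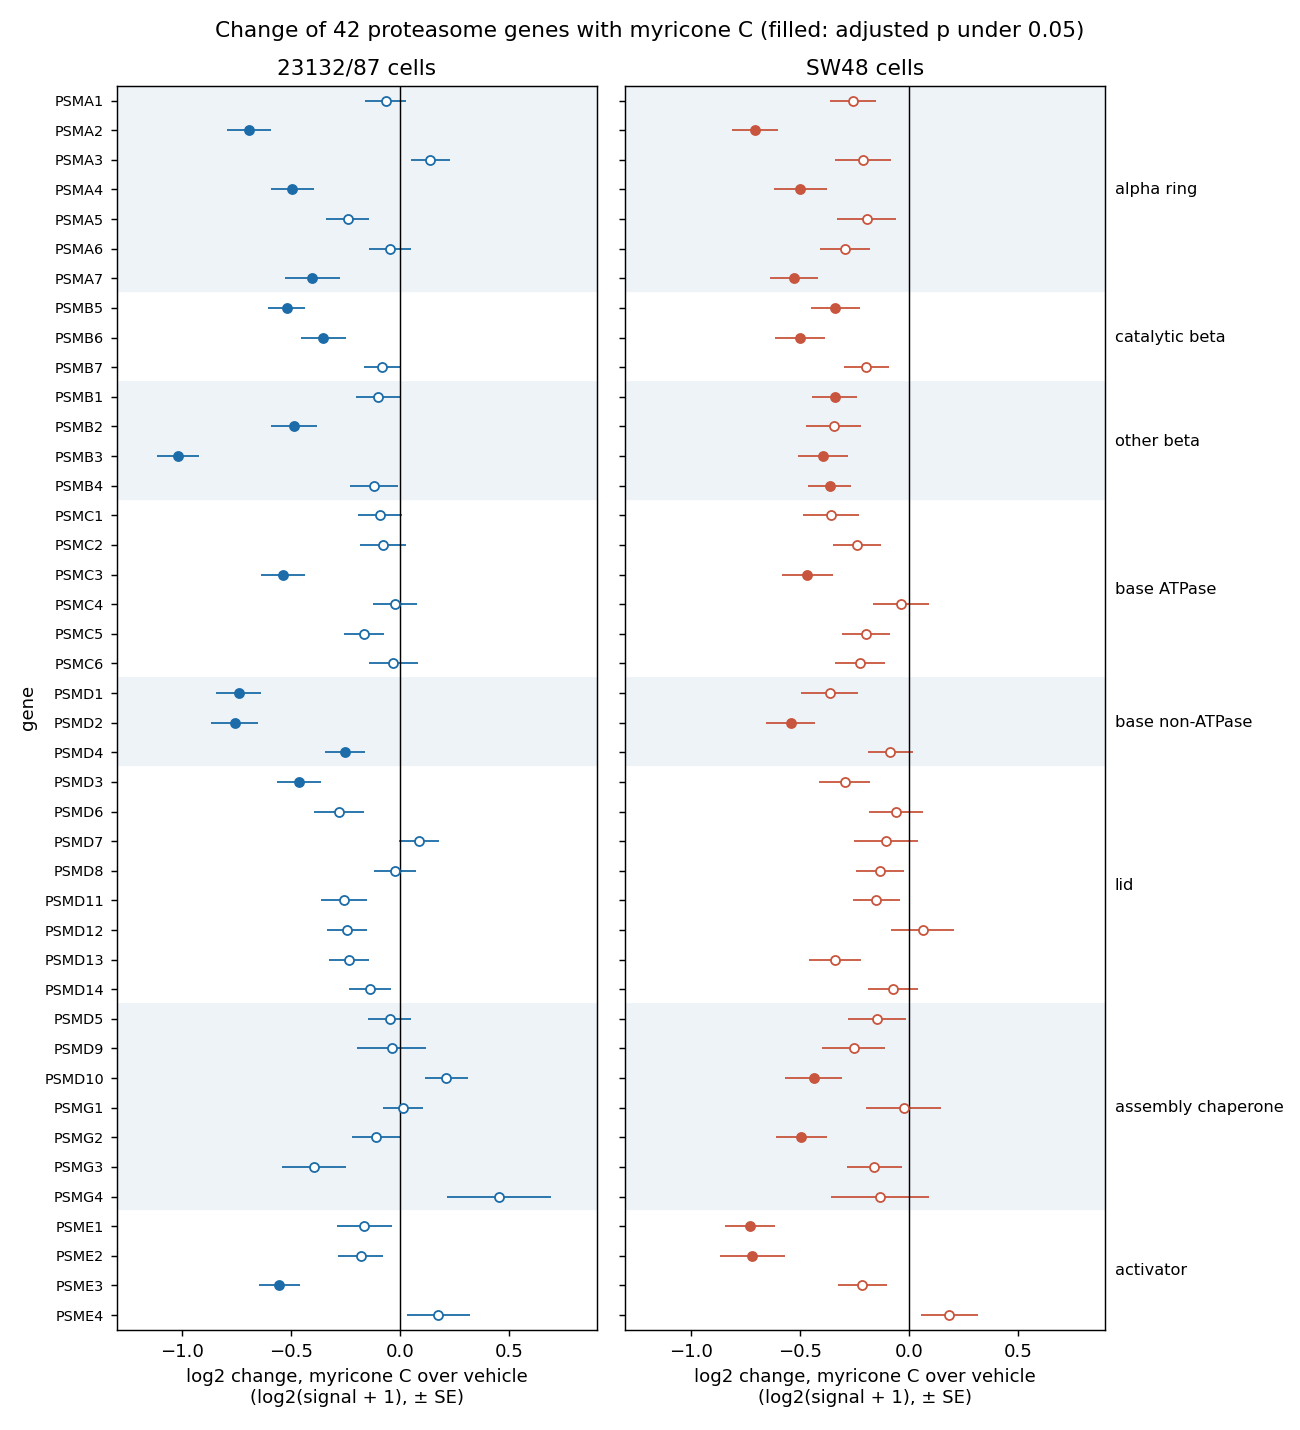
Change of each of the 42 components with myricone C, as the log2 difference of log2(signal + 1) between myricone C and vehicle with its standard error, in 23132/87 (left) and SW48 (right), 3 libraries a group. Filled points passed the test at adjusted p under 0.05; all 13 filled points in 23132/87 and all 14 in SW48 lie left of zero, and shading separates the classes.

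The core particle held the larger share of the calls. Of its 14 subunits, 7 (50%) were lower in 23132/87, where 23.2% of all genes were, and 8 (57.1%) in SW48, where 19.2% were. None was called higher in either line, and the medians were -0.30 and -0.34. Under quantile normalization 5 (35.7%) were lower and 1 higher in 23132/87, against 22.8% of genes lower, and 3 (21.4%) were lower in SW48, against 15.3%. After rescaling without mitochondrial pseudogenes, 7SL and small nuclear RNA genes 7 (50%) were lower in 23132/87, against 18.6% of genes, and 4 (28.6%) in SW48, against 14.7%. Whether the core differed from the rest of the proteasome was not tested.

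In the α ring, which gates entry to the barrel, 3 of 7 subunits (42.9%) were lower in 23132/87, against 23.2% of all genes. In SW48 3 of 7 (42.9%) were lower, against 19.2%, and they were the same 3: PSMA2, PSMA4 and PSMA7. PSMA2 lies on chromosome 7 (42916857 to 42932223, minus strand; positions here and after are those of GENCODE release 29 on GRCh38). Its signal in 23132/87 was 50.0, 59.1 and 53.1 in myricone C libraries, against 86.7, 83.5 and 94.1 in vehicle libraries. In SW48 PSMA2 measured 85.1, 75.5 and 79.5 in myricone C libraries, against 123, 130.4 and 140.0 in vehicle libraries. The groups stood well apart in both lines, and PSMA2 changed by -0.69 ± 0.10 (adjusted p = 0.000392) in 23132/87 and by -0.71 ± 0.11 (adjusted p = 0.000871) in SW48. It was the only component called lower in both lines under every alternative setting tried. Its reading carries a limit: 3 pseudogenes bear its name, and the gene overlaps MRPL32 on the opposite strand, whose reads cannot be told apart without the strand setting of the counting.

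PSMA4 measured 102, 113 and 117 in myricone C libraries, against 143, 159 and 167 in vehicle libraries in 23132/87, a change of -0.50 ± 0.10 (adjusted p = 0.00294). In SW48 PSMA4 measured 121, 115 and 102 in myricone C libraries, against 144, 153 and 182 in vehicle libraries, a change of -0.50 ± 0.12 (adjusted p = 0.0109) whose call was gone without vehicle replicate 3, at -0.40, and under quantile normalization, at -0.35. PSMA7 had 142, 125 and 137 in myricone C libraries, against 211, 179 and 193 in vehicle libraries in SW48, with no overlap and a change of -0.53 ± 0.11 (adjusted p = 0.0049). For PSMA7 in 23132/87 the signal was 205, 254 and 286 in myricone C libraries, against 333, 336 and 309 in vehicle libraries, where one myricone C library came near the vehicle range. The 23132/87 change of PSMA7, -0.40 ± 0.13 (adjusted p = 0.0256), was lost without myricone C replicate 2, vehicle replicate 1 or vehicle replicate 2, at -0.43 to -0.38, and under quantile normalization, at -0.25.

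The other 4 α subunits passed the test in neither line. PSMA6 had the smallest change of the ring in 23132/87, -0.05 ± 0.10 (adjusted p = 0.723), and PSMA5 the smallest in SW48, -0.19 ± 0.13 (adjusted p = 0.299). PSMA3 was the single α subunit with a positive estimate, 0.14 ± 0.09 (adjusted p = 0.241) in 23132/87, and measured -0.21 ± 0.13 in SW48. PSMA1 stood at -0.07 ± 0.09 in 23132/87 and -0.26 ± 0.10 in SW48. In SW48 all 7 estimates of the ring were negative, under every scaling tried. In 23132/87 4 of the 7 were negative under quantile normalization and after rescaling without mitochondrial pseudogenes, 7SL and small nuclear RNA genes.

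Of the catalytic β subunits, those of the chymotrypsin-like site (PSMB5) and the caspase-like site (PSMB6) were lower in both lines, while the trypsin-like subunit PSMB7 passed the test in neither. PSMB5, the site that clinical proteasome inhibitors chiefly bind, lies on chromosome 14 (23016543 to 23035230, minus strand). It measured 88.5, 89.9 and 91.2 in myricone C libraries, against 129, 132 and 128 in vehicle libraries in 23132/87, where both groups were tight and far apart. The 23132/87 change of PSMB5 was -0.52 ± 0.08 (adjusted p = 0.000762). In SW48 PSMB5 measured 93.2, 86.5 and 99.0 in myricone C libraries, against 113, 111 and 129 in vehicle libraries, and the change was -0.34 ± 0.11 (adjusted p = 0.042). That SW48 call was lost without any 1 of 5 of the 6 libraries, all but myricone C replicate 3, at -0.38 to -0.27. It was lost as well in 7 of 12 other settings, among them every other scaling, at -0.22 under quantile normalization, and the replicate block.

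PSMB6, on chromosome 17 (4796144 to 4798503, plus strand), measured 126, 115 and 103 in myricone C libraries, against 173, 149 and 165 in vehicle libraries in SW48, a change of -0.50 ± 0.12 (adjusted p = 0.00813). In 23132/87 PSMB6 had 104, 101 and 126 in myricone C libraries, against 143, 141 and 138 in vehicle libraries. The groups did not overlap in either line. The 23132/87 change, -0.35 ± 0.10 (adjusted p = 0.0194), lost its call without myricone C replicate 2, vehicle replicate 1 or vehicle replicate 2, at -0.35 to -0.29, and under quantile normalization, at -0.19. PSMB7 measured 107, 107 and 114 in myricone C libraries, against 114, 119 and 114 in vehicle libraries in 23132/87, and 152, 162 and 147 in myricone C libraries, against 169, 170.0 and 189.9 in vehicle libraries in SW48. Its myricone C libraries lay below the vehicle libraries in both lines, though in 23132/87 by a margin too small to show in these figures, with changes of -0.08 ± 0.09 (adjusted p = 0.451) in 23132/87 and -0.19 ± 0.11 (adjusted p = 0.189) in SW48.

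Among the other β subunits PSMB3 had the largest fall of any component in 23132/87. This structural subunit lies on chromosome 17 (38752736 to 38764231, plus strand) and has 1 named pseudogene; its promoter stretch is printed above. In SW48 PSMB3 measured 119, 116 and 112 in myricone C libraries, against 156, 134 and 168 in vehicle libraries. In 23132/87 it measured 68.7, 78.9 and 76.4 in myricone C libraries, against 143, 153 and 162 in vehicle libraries. No myricone C library reached a vehicle library in either line, and the gap was narrower in SW48, where the change was -0.39 ± 0.11 (adjusted p = 0.0241), against -1.02 ± 0.10 (adjusted p = 3.73e-05) in 23132/87. The SW48 call was lost without myricone C replicate 2, myricone C replicate 3, vehicle replicate 1 or vehicle replicate 3, at -0.40 to -0.32, under quantile normalization, at -0.25, and after rescaling, at -0.32.

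The remaining structural β subunits were called in 1 line each. PSMB2 was lower in 23132/87 at 25.9, 24.7 and 25.9 in myricone C libraries, against 32.0, 36.7 and 40.3 in vehicle libraries, a change of -0.49 ± 0.11 (adjusted p = 0.00451); in SW48 the estimate was -0.34 ± 0.13 (adjusted p = 0.0611), which passed the test without vehicle replicate 2, at -0.45. PSMB4 was lower in SW48 at 174, 166 and 160.3 in myricone C libraries, against 214, 214 and 217 in vehicle libraries, with a change of -0.36 ± 0.10 (adjusted p = 0.0185) whose call did not survive leaving out myricone C replicate 2 or vehicle replicate 3, at -0.36 in each case, or quantile normalization, at -0.24. PSMB1 was lower in SW48 at 164, 159 and 147 in myricone C libraries, against 197, 190.4 and 208 in vehicle libraries, and its change of -0.34 ± 0.10 (adjusted p = 0.0298) was lost without myricone C replicate 2, myricone C replicate 3, vehicle replicate 1 or vehicle replicate 3, at -0.35 to -0.30, and under every other scaling, at -0.29 to -0.22. In 23132/87 the changes were -0.12 ± 0.11 (adjusted p = 0.399) for PSMB4 and -0.10 ± 0.10 (adjusted p = 0.426) for PSMB1, with overlapping groups. All 4 structural β subunits had their myricone C libraries below their vehicle libraries in SW48, where 28.4% of all genes did. The 3 calls there (75%, against 19.2% of all genes) became 0 under quantile normalization and after rescaling.

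**Figure D3:**
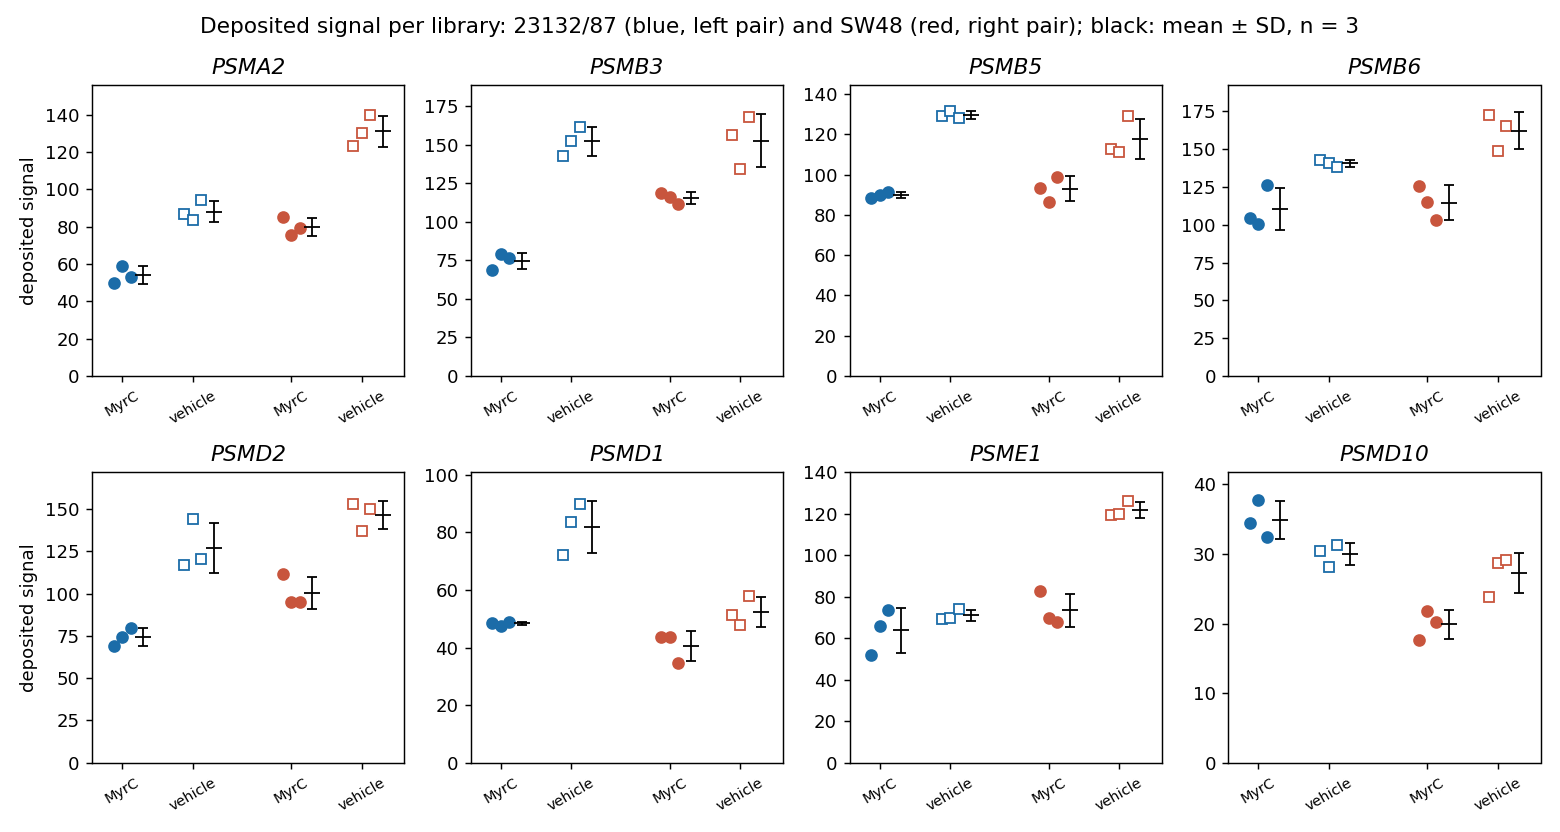
Deposited signal of 8 components in every library, with 23132/87 as the left pair and SW48 as the right pair of each panel. Filled circles are myricone C libraries and open squares vehicle libraries, with the mean ± SD of 3 in black; the groups stand apart in both lines for PSMA2, PSMB3, PSMB5, PSMB6, PSMD2 and PSMD1, PSME1 overlaps in 23132/87, and PSMD10 lies above vehicle in 23132/87 and below it in SW48.

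In the regulatory particle, 5 of 17 subunits (29.4%) were lower in 23132/87, near the background of 23.2%. In SW48 2 of 17 (11.8%) were lower, below the background of 19.2%. The estimate was negative for 16 of the 17 (94.1%) in each line, against 48.7% of all genes in 23132/87 and 58.7% in SW48. The medians were -0.24 and -0.20, beside 0.01 and -0.08 over all genes. At an unadjusted p under 0.05, 9 were lower in 23132/87, where 2957 of 11070 genes were. In SW48 6 were lower at that threshold, where 3072 of 11554 genes were. The ATPase ring of the base contributed 1 call in each line, and it was the same gene. PSMC3, an ATPase on chromosome 11 (47418769 to 47426473, minus strand), measured 51.8, 62.3 and 60.4 in myricone C libraries, against 80.9, 89.6 and 84.1 in vehicle libraries in 23132/87. In SW48 PSMC3 measured 67.1, 66.7 and 63.6 in myricone C libraries, against 101, 79.9 and 93.7 in vehicle libraries. The groups did not overlap in either line, with changes of -0.54 ± 0.10 (adjusted p = 0.00189) in 23132/87 and -0.46 ± 0.12 (adjusted p = 0.0122) in SW48, the SW48 call failing when vehicle replicate 1 (-0.39) or vehicle replicate 3 (-0.45) was left out.

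The other 5 ATPases passed the test in neither line. All 5 had negative estimates, from -0.17 to -0.02 in 23132/87 and from -0.36 to -0.04 in SW48. Of these, 2 in 23132/87 and 1 in SW48 turned positive under quantile normalization. After rescaling without mitochondrial pseudogenes, 7SL and small nuclear RNA genes, 3 of all 6 ATPases had negative estimates in 23132/87 and 5 in SW48. PSMC4 was the closest to zero in both, at -0.02 ± 0.10 (adjusted p = 0.869) in 23132/87 and -0.04 ± 0.13 (adjusted p = 0.852) in SW48. PSMC1, which has 13 named pseudogenes and is the most exposed to shared reads, stood at -0.09 ± 0.10 in 23132/87. In SW48 PSMC1 had -0.36 ± 0.13 (adjusted p = 0.057), with groups that stood apart, and passed the test without myricone C replicate 2, at -0.44. PSMC2 had -0.08 ± 0.10 and PSMC6 -0.03 ± 0.11 in 23132/87, and PSMC5 had -0.17 ± 0.09. Their SW48 estimates were further from zero, -0.24 ± 0.11 for PSMC2, -0.22 ± 0.11 for PSMC6 and -0.20 ± 0.11 for PSMC5.

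The non-ATPase subunits of the base included some of the larger falls in 23132/87, where all 3 were lower, against 23.2% of all genes. In SW48 1 of the 3 (33.3%) was lower, against 19.2%. PSMD2, a scaffold that docks ubiquitin-like domains of shuttle proteins, lies on chromosome 3 (184298709 to 184309054, plus strand). It measured 69.0, 74.6 and 79.6 in myricone C libraries, against 117, 144 and 120.3 in vehicle libraries in 23132/87. In SW48 PSMD2 measured 111, 94.9 and 95.0 in myricone C libraries, against 153, 137 and 149.8 in vehicle libraries. Both comparisons were free of overlap, and PSMD2 changed by -0.76 ± 0.11 (adjusted p = 0.000386) in 23132/87 and by -0.54 ± 0.11 (adjusted p = 0.00442) in SW48.

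PSMD1, the largest subunit of the base, lies on chromosome 2 (231056864 to 231172827, plus strand). Its signal was 48.7, 47.6 and 48.8 in myricone C libraries, against 72.3, 83.6 and 89.9 in vehicle libraries in 23132/87, a change of -0.74 ± 0.10 (adjusted p = 0.000306). In SW48 PSMD1 had 43.7, 43.5 and 34.6 in myricone C libraries, against 51.3, 47.7 and 58.0 in vehicle libraries; the groups did not overlap, but the change, -0.36 ± 0.13 (adjusted p = 0.0576), did not pass the test, except without myricone C replicate 1, at -0.42. PSMD4, a receptor that holds ubiquitin chains, measured 111, 125 and 116 in myricone C libraries, against 137, 146 and 137 in vehicle libraries in 23132/87 and changed by -0.25 ± 0.09 (adjusted p = 0.0418). That PSMD4 call was lost when any 1 of the 6 libraries was left out, at -0.30 to -0.21, and under quantile normalization, at -0.10, rescaling, at -0.17, and the replicate block, at -0.25. In SW48 PSMD4 measured 82.0, 83.4 and 88.3 in myricone C libraries, against 93.1, 90.1 and 86.0 in vehicle libraries, with overlapping groups and a change of -0.08 ± 0.10 (adjusted p = 0.574).

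Of the 8 lid subunits, 1 (12.5%) was lower in 23132/87, against 23.2% of all genes, and 0 in SW48, against 19.2%. At an unadjusted p under 0.05, 5 were lower and 0 higher in 23132/87, where 2957 of 11070 genes were lower. In SW48 2 were lower and 0 higher at that threshold, where 3072 of 11554 genes were lower. The estimate was negative for 7 of the 8 in each line. Under quantile normalization it was negative for 5 in 23132/87 and 4 in SW48. Under median-centred scaling 5 (62.5%) were lower in 23132/87, against 25% of genes. PSMD3, a structural subunit of the lid on chromosome 17 (39980797 to 39997960, plus strand), measured 47.9, 55.2 and 53.7 in myricone C libraries, against 72.0, 78.2 and 67.3 in vehicle libraries in 23132/87, a change of -0.46 ± 0.10 (adjusted p = 0.00397). In SW48 it measured 57.9, 59.9 and 65.5 in myricone C libraries, against 83.2, 68.0 and 74.8 in vehicle libraries, a change of -0.29 ± 0.12 (adjusted p = 0.0771), short of the threshold although the groups stood apart. PSMD14, the deubiquitinase that removes chains from substrates as they enter, measured 96.7, 88.1 and 92.4 in myricone C libraries, against 93.2, 104 and 109 in vehicle libraries in 23132/87, and 75.9, 91.0 and 81.3 in myricone C libraries, against 83.6, 82.3 and 94.9 in vehicle libraries in SW48. Its groups overlapped in both lines, with changes of -0.14 ± 0.10 (adjusted p = 0.255) in 23132/87 and -0.07 ± 0.12 (adjusted p = 0.677) in SW48.

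PSMD8 had the smallest change of the lid in 23132/87, -0.03 ± 0.10, and PSMD6 the smallest in SW48, -0.06 ± 0.13. PSMD7, the partner of PSMD14, had the single positive estimate of the lid in 23132/87, 0.09 ± 0.09, and PSMD12 that in SW48, 0.06 ± 0.15. PSMD12, whose promoter holds an element core, stood at -0.24 ± 0.09 in 23132/87. PSMD11 had -0.26 ± 0.11 and PSMD13 -0.24 ± 0.09 in 23132/87, and -0.15 ± 0.11 and -0.34 ± 0.12 in SW48; none of these passed the test with all libraries. Leaving out 1 library let PSMD11 pass in 23132/87 without myricone C replicate 1, at -0.34, and PSMD6 and PSMD13 without vehicle replicate 1, at -0.38 and -0.29. In SW48 PSMD13 passed without vehicle replicate 2, at -0.44. A p that misses the threshold does not show that these genes stayed level.

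Assembly chaperones, which bring subunits together and leave the finished particle, held 0 calls out of 7 in 23132/87, where 23.2% of all genes were lower, and 2 lower (28.6%) in SW48, where 19.2% were. At an unadjusted p under 0.05 1 of the 7 was lower and 0 higher in 23132/87, where 2957 of 11070 genes were lower. PSMG2, a chaperone of α ring assembly, measured 40.1, 46.4 and 41.9 in myricone C libraries, against 54.1, 64.4 and 63.6 in vehicle libraries in SW48. The groups stood apart, with a change of -0.49 ± 0.12 (adjusted p = 0.00979), against -0.11 ± 0.11 (adjusted p = 0.427) in 23132/87. PSMD10, also known as gankyrin, is a chaperone of the base and was first described as an oncoprotein. It measured 17.7, 21.8 and 20.2 in myricone C libraries, against 23.9, 28.8 and 29.1 in vehicle libraries in SW48. In 23132/87 PSMD10 had 34.5, 37.7 and 32.4 in myricone C libraries, against 30.4, 28.2 and 31.3 in vehicle libraries. Its libraries lay below vehicle in SW48 and above vehicle in 23132/87. The SW48 change, -0.44 ± 0.13 (adjusted p = 0.0284), was lost without myricone C replicate 1, myricone C replicate 3, vehicle replicate 2 or vehicle replicate 3, at -0.45 to -0.36, and under quantile normalization or after rescaling, at -0.37 in both. The 23132/87 change, 0.21 ± 0.10 (adjusted p = 0.108), did not pass the test.

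PSMG1, the partner of PSMG2, had the smallest change of the chaperones in both lines, 0.01 ± 0.09 in 23132/87 and -0.02 ± 0.17 in SW48. PSMG3 stood at -0.40 ± 0.15 (adjusted p = 0.0505) in 23132/87, where it passed the test without myricone C replicate 3, at -0.52, or vehicle replicate 3, at -0.48, and at -0.16 ± 0.13 (adjusted p = 0.377) in SW48. PSMG4, the partner of PSMG3, had the largest positive estimate of any component, 0.45 ± 0.24 (adjusted p = 0.145) in 23132/87, with a wide error: its signal was 11.6, 21.7 and 18.8 in myricone C libraries, against 15.3, 13.0 and 8.70 in vehicle libraries. Without 23132/87 myricone C replicate 1 PSMG4 was called higher, at 0.70. The base chaperones PSMD5 and PSMD9 had -0.05 ± 0.10 and -0.04 ± 0.16 in 23132/87, and -0.15 ± 0.13 and -0.25 ± 0.14 in SW48.

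The activators, which cap the core in place of the regulatory particle, were called in different lines. PSME1 and PSME2, the interferon-inducible pair that form a shared ring and serve antigen processing, lie 4394 bases apart on chromosome 14 on opposite strands, and both were lower in SW48. PSME1 measured 82.7, 69.7 and 67.9 in myricone C libraries, against 119, 120.0 and 126 in vehicle libraries in SW48. PSME2 measured 64.6, 48.8 and 47.1 in myricone C libraries, against 93.8, 75.0 and 95.8 in vehicle libraries there. For both the groups stood apart, with changes of -0.73 ± 0.11 (adjusted p = 0.000967) for PSME1 and -0.72 ± 0.15 (adjusted p = 0.00431) for PSME2, the largest falls of any component in SW48.

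In 23132/87 PSME1 measured 52.1, 65.9 and 73.6 in myricone C libraries, against 69.4, 69.8 and 73.9 in vehicle libraries, and PSME2 had 117, 118 and 135 in myricone C libraries, against 125, 147 and 148 in vehicle libraries. The groups overlapped for both, with changes of -0.16 ± 0.12 (adjusted p = 0.303) and -0.18 ± 0.11 (adjusted p = 0.179). PSME1 overlaps EMC9 and PSME2 overlaps RNF31 on the opposite strand, so reads of these pairs cannot be told apart without the strand setting.

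PSME3, the nuclear activator that forms a ring of its own, was lower in 23132/87. It measured 56.0, 54.6 and 53.9 in myricone C libraries, against 74.5, 81.3 and 88.1 in vehicle libraries, a change of -0.56 ± 0.09 (adjusted p = 0.00109), and overlaps BECN1 on the opposite strand. In SW48 PSME3 measured 56.1, 58.3 and 54.8 in myricone C libraries, against 67.3, 59.0 and 70.9 in vehicle libraries, without overlap, and the change of -0.21 ± 0.11 (adjusted p = 0.174) did not pass the test. PSME4, the large single-chain activator, had positive estimates in both lines, 0.17 ± 0.14 (adjusted p = 0.352) in 23132/87 and 0.19 ± 0.13 (adjusted p = 0.308) in SW48, and passed the test in neither.

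Of the 42 components, 8 were called lower in both lines: PSMA2, PSMA4, PSMA7, PSMB3, PSMB5, PSMB6, PSMC3 and PSMD2. They make up 61.5% of the calls in 23132/87 and 57.1% of those in SW48. A further 5 were called in 23132/87 and not in SW48, 6 in SW48 and not in 23132/87, and 23 in neither. The estimate was negative in both lines for 35 components. Across the 42 components the changes in the lines had a Pearson r of 0.435 and a Spearman rho of 0.465, given as a description over genes that share libraries. Neither the share of all 10252 genes listed in both lines that was called lower in both, nor their correlation, was computed. Whether the components overlapped more than other genes was therefore not tested. Over the same 42, the change had an r of 0.0894 with transcript length in 23132/87 and 0.342 in SW48, and of -0.207 and -0.266 with GC content.

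The difference between the lines itself was tested as the SW48 change minus the 23132/87 change, by limma over the 10252 genes in both tables, of which 12.8% passed. Among the 42 components 3 passed. PSMB3 fell less in SW48, with a difference of 0.63 ± 0.14 (adjusted p = 0.0119). PSMD10 had a difference of -0.65 ± 0.16 (adjusted p = 0.0167), with opposite signs in the lines. PSME1 fell further in SW48, with a difference of -0.56 ± 0.17 (adjusted p = 0.0408), a call kept in 8 of 22 alternative settings and lost without any 1 of 10 of the 12 libraries, all but 23132/87 myricone C replicate 1 and SW48 myricone C replicate 1, at -0.59 to -0.46. The differences of PSMB3 and PSMD10 passed under all 22 alternatives. PSME2, the partner of PSME1, had a difference of -0.53 ± 0.19 (adjusted p = 0.0758), past the threshold in 2 of the 22, without SW48 myricone C replicate 1, at -0.68, or SW48 vehicle replicate 2, at -0.65. For the other components called in 1 line, a difference between the lines was not shown.

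**Figure D4:**
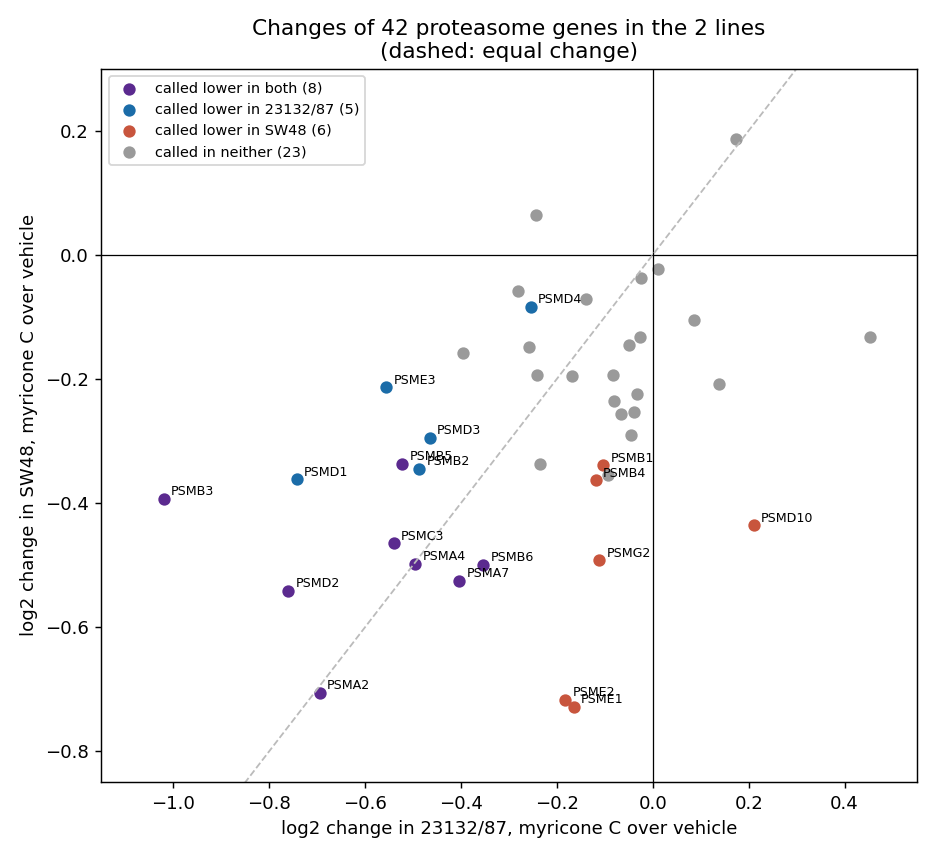
Change of each of the 42 components with myricone C in 23132/87 (horizontal) and SW48 (vertical), both as log2 differences of log2(signal + 1) between myricone C and vehicle. Purple points were called lower in both lines (8), blue in 23132/87 (5), red in SW48 (6) and grey in neither (23); on the dashed line the changes are equal, and PSMB3, PSMD10 and PSME1 are the components whose difference passed the test.

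Components with and without an element core were set side by side. Over all genes tested, 23.2% were lower in 23132/87 and 19.2% in SW48. Of the 12 components with a match, 3 were lower in 23132/87 and 5 in SW48, with medians of -0.17 and -0.27. Of the 24 with an entry and no match, 7 were lower in 23132/87 and 6 in SW48, with medians of -0.13 and -0.25. Components with CCAAT numbered 17, of which 7 were lower in 23132/87 and 6 in SW48, with medians of -0.24 and -0.21. Of the 19 without it, 3 were lower in 23132/87 and 5 in SW48, with medians of -0.11 and -0.29. The order of the CCAAT medians was thus reversed between the lines. These splits are descriptions and were not tested.

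The 2 genes that match by name alone behaved unlike each other. PSMC3IP encodes a partner of the meiotic recombinase and was named for binding PSMC3; it lies on chromosome 17 (42572315 to 42577831, minus strand) and overlaps MLX on the opposite strand. In SW48 it measured 16.9, 18.1 and 19.6 in myricone C libraries, against 19.5, 15.5 and 19.9 in vehicle libraries. In 23132/87 PSMC3IP measured 11.6, 9.74 and 13.2 in myricone C libraries, against 26.9, 21.2 and 23.2 in vehicle libraries. The groups overlapped in SW48 and stood apart in 23132/87, with changes of -0.00 ± 0.13 (adjusted p = 0.99) in SW48 and -0.99 ± 0.14 (adjusted p = 0.000321) in 23132/87, and the SW48 change minus the 23132/87 change was 0.98 ± 0.19 (adjusted p = 0.00461). PSME3IP1, a nuclear partner of PSME3, changed by 0.01 ± 0.10 (adjusted p = 0.966) in 23132/87 and by 0.01 ± 0.13 (adjusted p = 0.955) in SW48.

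Most genes on a list of the NFE2L1 and NFE2L2 route to proteasome transcription were higher with myricone C. The list was chosen with earlier results of these data known, so its counts are a description and not a test. Of 7 genes on that list, 6 were higher and 0 lower in 23132/87, where 23.3% of all genes were higher, and 4 were higher and 0 lower in SW48, where 10.1% were. The list medians were 0.55 and 0.47, and the counts were the same under all 3 other scalings; at an unadjusted p under 0.05 the counts lower were also 0 in both lines. NFE2L1, the factor that raises subunit genes when proteasome activity is short, measured 62.4, 73.0 and 82.4 in myricone C libraries, against 47.5, 41.4 and 44.5 in vehicle libraries in SW48. In 23132/87 NFE2L1 measured 209, 223 and 216 in myricone C libraries, against 92.3, 96.5 and 76.5 in vehicle libraries. No vehicle library reached a myricone C library, with changes of 0.69 ± 0.13 (adjusted p = 0.00244) in SW48 and 1.28 ± 0.11 (adjusted p = 1.60e-05) in 23132/87, and the SW48 change minus the 23132/87 change came to -0.60 ± 0.16 (adjusted p = 0.028). That difference was lost under the replicate block and without any 1 of 6 of the 12 libraries, at -0.60 to -0.49; these were myricone C replicates 2 and 3 and vehicle replicate 3 of 23132/87, and myricone C replicate 1 and vehicle replicates 1 and 3 of SW48.

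Of its small MAF partners, MAFG and MAFF rose in both lines. MAFG measured 30.6, 25.5 and 22.8 in myricone C libraries, against 9.53, 9.85 and 8.85 in vehicle libraries in 23132/87, and 18.4, 22.4 and 25.1 in myricone C libraries, against 10.0, 7.88 and 8.11 in vehicle libraries in SW48, changes of 1.38 ± 0.13 (adjusted p = 2.85e-05) in 23132/87 and 1.25 ± 0.15 (adjusted p = 0.000286) in SW48. MAFF, a low-signal gene, rose by 1.28 ± 0.13 (adjusted p = 6.85e-05) in 23132/87 and by 1.67 ± 0.27 (adjusted p = 0.0011) in SW48. MAFK rose in 23132/87 by 0.55 ± 0.17 (adjusted p = 0.0254), a call lost without myricone C replicate 1, myricone C replicate 3 or vehicle replicate 3, at 0.37 to 0.51. In SW48 MAFK stood at 0.40 ± 0.18 (adjusted p = 0.123) with overlapping groups, and passed the test without vehicle replicate 1, at 0.60. NFE2L2, which encodes NRF2 and shares the binding element, rose by 0.42 ± 0.11 (adjusted p = 0.00909) in 23132/87 and by 0.47 ± 0.13 (adjusted p = 0.0194) in SW48. The SW48 call of NFE2L2 was lost without myricone C replicate 2, myricone C replicate 3, vehicle replicate 1 or vehicle replicate 2, at 0.40 to 0.44. NGLY1, the glycanase that NFE2L1 needs for its activation, rose by 0.52 ± 0.12 (adjusted p = 0.00719) in 23132/87 and stood at 0.35 ± 0.15 (adjusted p = 0.11) in SW48, where it passed the test without myricone C replicate 1, at 0.50. DDI2, the protease that cleaves NFE2L1, passed the test in neither line (0.07 ± 0.14 in 23132/87 and 0.04 ± 0.13 in SW48).

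Other parts of the particle and its assembly, 11 genes with the immunoproteasome subunits PSMB8, PSMB9 and PSMB10 among them, split. In 23132/87 2 (18.2%) were lower and 5 (45.5%) higher, against 23.2% and 23.3% of all genes. In SW48 3 (27.3%) were lower and 1 (9.09%) higher, against 19.2% and 10.1%. SEM1, a small acidic subunit of the lid that lies outside the name rule, measured 109, 121 and 157 in myricone C libraries, against 209, 187 and 205 in vehicle libraries in 23132/87, and 185, 143 and 165 in myricone C libraries, against 354, 329.9 and 373 in vehicle libraries in SW48. The groups were far apart in both lines, with changes of -0.65 ± 0.13 (adjusted p = 0.00328) in 23132/87 and -1.10 ± 0.12 (adjusted p = 0.000193) in SW48. POMP, the maturation protein of the core, was lower in 23132/87 at -0.45 ± 0.13 (adjusted p = 0.016), a call lost under quantile normalization, at -0.30, and stood at -0.21 ± 0.14 (adjusted p = 0.267) in SW48. ECPAS, a proteasome adaptor, was higher in both lines, by 0.59 ± 0.11 (adjusted p = 0.00179) in 23132/87 and 0.38 ± 0.11 (adjusted p = 0.0253) in SW48. The SW48 call of ECPAS was lost under the replicate block, at 0.38, and without any 1 of 5 of the 6 libraries, all but myricone C replicate 1, at 0.35 to 0.39. TXNL1, a thioredoxin bound to the regulatory particle, was higher in 23132/87 at 0.62 ± 0.18 (adjusted p = 0.0167), a call lost without myricone C replicate 1 (0.51), and stood at 0.08 ± 0.14 (adjusted p = 0.683) in SW48.

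The immunoproteasome subunits, which replace the catalytic β subunits in cells exposed to interferon, also differed in where they were called. PSMB8 was lower in SW48 at 32.7, 32.6 and 36.2 in myricone C libraries, against 50.6, 45.7 and 45.8 in vehicle libraries, a change of -0.47 ± 0.11 (adjusted p = 0.00873); in 23132/87 it changed by 0.15 ± 0.14 (adjusted p = 0.389), and the difference between the lines was -0.63 ± 0.18 (adjusted p = 0.031). That difference was lost under median-centred scaling, at -0.56, under the replicate block, at -0.63, and without any 1 of 8 of the 12 libraries, all but vehicle replicates 1 and 2 of 23132/87 and myricone C replicates 1 and 3 of SW48, at -0.66 to -0.47. PSMB9 was higher in 23132/87 at 0.61 ± 0.17 (adjusted p = 0.0151), a call lost without myricone C replicate 2, vehicle replicate 2 or vehicle replicate 3 at 0.53 to 0.56, and stood at -0.19 ± 0.21 (adjusted p = 0.544) in SW48. PSMB10 was lower in SW48 at -0.53 ± 0.16 (adjusted p = 0.0301), lost without myricone C replicate 2, vehicle replicate 1, vehicle replicate 2 or vehicle replicate 3 at -0.59 to -0.37, after rescaling at -0.47 and under the replicate block at -0.53, and stood at -0.37 ± 0.22 (adjusted p = 0.198) in 23132/87. By limma's line-by-treatment term the lines did not pass as different for PSMB9, at -0.80 ± 0.29 (adjusted p = 0.0874). Nor did they for PSMB10, at -0.17 ± 0.29 (adjusted p = 0.747). PSMB9 and PSMB10 had low signal, under 10 in every library of both lines.

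Of 23 genes that make ubiquitin, attach it or deliver its substrates, 5 (21.7%) were lower and 4 (17.4%) higher in 23132/87, against 23.2% and 23.3% of all genes. In SW48 4 (17.4%) were lower and 3 (13%) higher, against 19.2% and 10.1%, so that the shares lay near the background. UBB, which encodes repeats of ubiquitin, was lower, by -0.59 ± 0.13 (adjusted p = 0.00482) in 23132/87 and -0.78 ± 0.14 (adjusted p = 0.00249) in SW48. Reads of UBB can be shared with near-identical ubiquitin sequences elsewhere, so that its values are uncertain. UBA1, the main ubiquitin-activating enzyme, measured 71.8, 71.9 and 73.2 in myricone C libraries, against 126, 136 and 117 in vehicle libraries in 23132/87, and was lower in both lines, by -0.80 ± 0.09 (adjusted p = 0.000115) in 23132/87 and -0.43 ± 0.10 (adjusted p = 0.0113) in SW48, where the call was lost under quantile normalization, at -0.26.

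ZFAND2A, an arsenite-inducible proteasome-binding protein, had the largest rise of that list in 23132/87. It measured 33.2, 30.9 and 30.2 in myricone C libraries, against 10.5, 12.3 and 9.66 in vehicle libraries in 23132/87, and 15.0, 31.5 and 29.3 in myricone C libraries, against 13.5, 10.4 and 9.80 in vehicle libraries in SW48, changes of 1.46 ± 0.11 (adjusted p = 1.13e-05) in 23132/87 and 1.05 ± 0.24 (adjusted p = 0.00735) in SW48. UBQLN2, a shuttle that carries ubiquitinated proteins to the proteasome, measured 11.4, 11.1 and 12.8 in myricone C libraries, against 10.9, 14.6 and 13.4 in vehicle libraries in SW48, with overlap. In 23132/87 UBQLN2 measured 12.6, 11.1 and 11.5 in myricone C libraries, against 4.59, 4.91 and 4.74 in vehicle libraries, and the groups stood far apart. Its changes were -0.12 ± 0.14 (adjusted p = 0.541) in SW48 and 1.15 ± 0.11 (adjusted p = 4.86e-05) in 23132/87, a difference between the lines of -1.27 ± 0.17 (adjusted p = 0.000473). MIDN, which delivers short-lived nuclear proteins without ubiquitin, went the other way round: it rose by 1.14 ± 0.23 (adjusted p = 0.00371) in SW48 and stood at 0.15 ± 0.13 (adjusted p = 0.369) in 23132/87, a difference of 0.98 ± 0.30 (adjusted p = 0.041). The difference of MIDN was lost under the replicate block and without any 1 of 8 of the 12 libraries, at 0.81 to 0.98; those that could be left out were myricone C replicate 2 and vehicle replicate 3 of 23132/87, and myricone C replicate 1 and vehicle replicate 1 of SW48. ZFAND2B, a relative of ZFAND2A chosen after its values were seen, had -0.48 ± 0.16 (adjusted p = 0.0494) in SW48 and 0.36 ± 0.12 (adjusted p = 0.0341) in 23132/87, and its difference of -0.83 ± 0.21 (adjusted p = 0.0169) passed under all alternatives. Within the lines its calls were not stable: they were lost without myricone C replicate 1 or 2, or vehicle replicate 1, 2 or 3, in SW48, at -0.54 to -0.39, under every other scaling there, at -0.43 to -0.41, and without myricone C replicate 1 or 2, or vehicle replicate 1 or 3, in 23132/87, at 0.28 to 0.38.

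**Figure D5:**
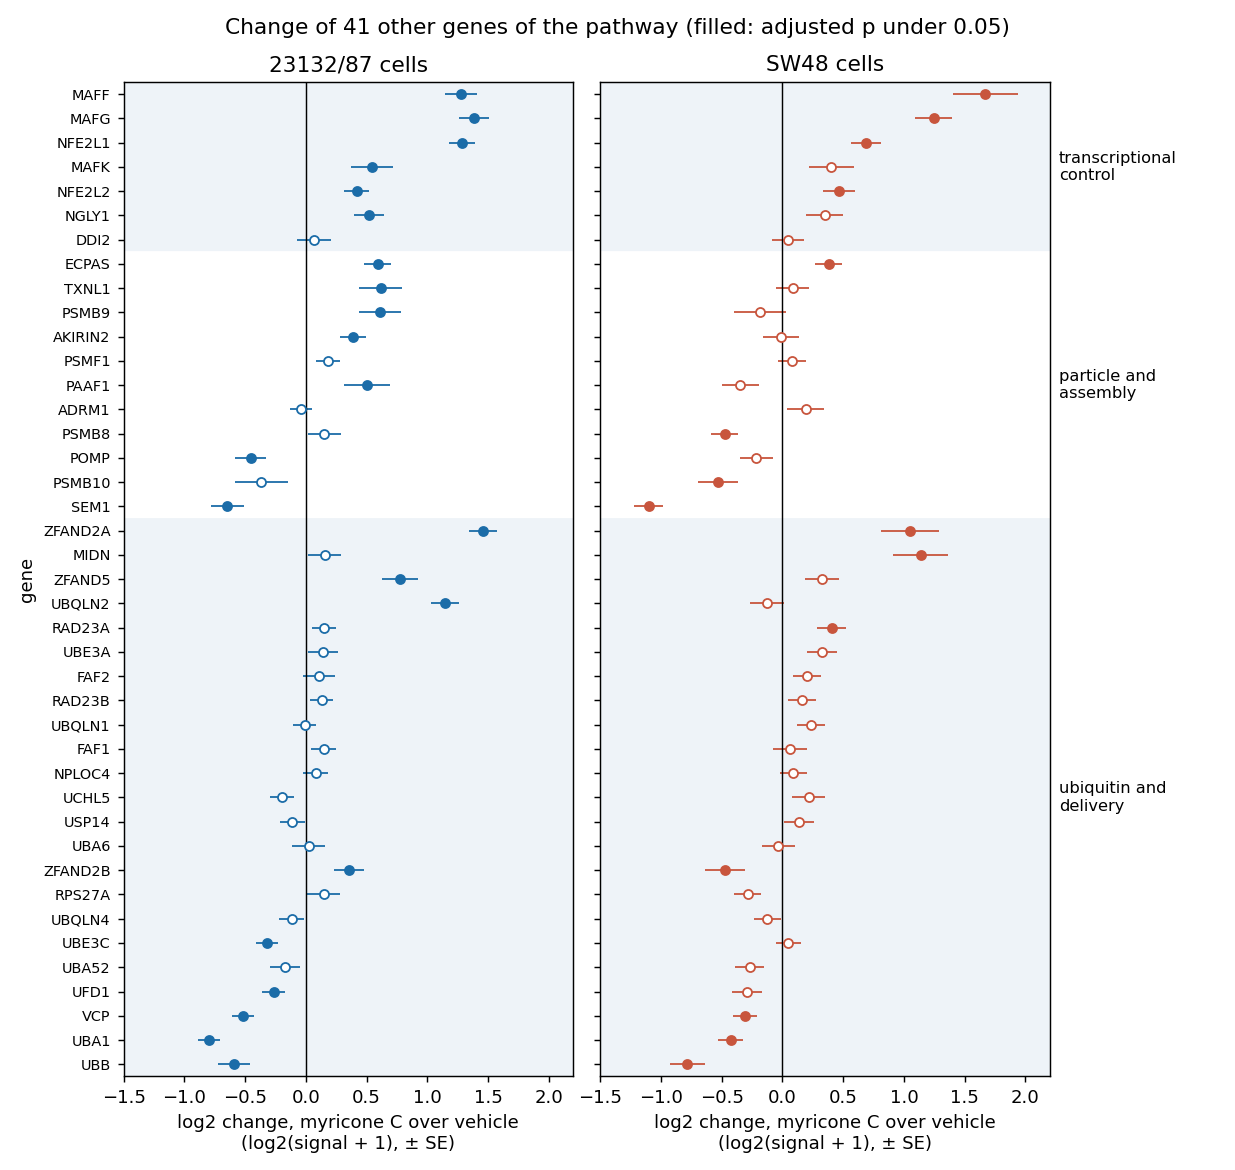
Change of the other genes of the pathway with myricone C, as the log2 difference of log2(signal + 1) between myricone C and vehicle with its standard error, in 23132/87 (left) and SW48 (right), 3 libraries a group. Filled points passed the test at adjusted p under 0.05; in transcriptional control 6 filled points in 23132/87 and 4 in SW48 lie right of zero, while the other lists hold filled points on both sides.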

How the data were processed

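Per the labels' protocols, RNA was made into libraries with the TruSeq Stranded mRNA kit. The submitters' processing notes name FastQC and STAR, with no versions, and GRCh38; which program counted, on which strand setting and annotation, and in which unit is not given in the sources used here. Per line, the authors deposited a table of signal per gene that resembles FPKM or TPM, listing genes at or above 1 in all 6 libraries. Because the values are not counts, depth is unknown and no count test was run. The mean signal had to be at least 1, as it was for all genes, and log2(signal + 1) was fitted with limma 3.58.1 in R 4.3.3 (lmFit, eBayes with trend), with Benjamini-Hochberg adjustment over all genes of a line and a threshold of 0.05. A line-by-treatment term over all 12 libraries gave the difference between lines. Changes on this scale understate those of low genes. The labels call the replicates biological without saying whether they came from separate cultures, and p-values measure the spread between them. No library duplicated another. The fit was also run on simulated data, and the outcome of that run is not given here. Gene positions are from GENCODE release 29 and promoters from RefSeq.

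The members, lists and tests were chosen with earlier results of these data known. In each class the text names the members with the largest called and the smallest change, PSMB5, PSMB6, PSMB7, PSMD14 and PSMD4, and every component whose lines differed; of the pathway lists, the 3 largest called changes and set genes. The remaining members are given to account for all, and ECPAS, NGLY1, DDI2, MAFK and ZFAND2B were added after their values were seen. One further gene of the ubiquitin list was left out of its counts, its plot and the text. Alternatives were other scalings, filters, pseudocounts and fits, replicate blocks and leaving out each library.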

Additional observations from a re-analysis of the deposited data

Results flagged for a closer look

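The change with myricone C differed between the lines, by limma's line-by-treatment term, for 4 of the 44 genes, where 12.8% of all genes did. PSMB3 had a difference (SW48 minus 23132/87) of 0.63, with changes of -0.39 in SW48 and -1.02 in 23132/87. PSMC3IP, which matches by name alone, had a difference of 0.98, with changes of -0.00 in SW48 and -0.99 in 23132/87. PSMD10 had a difference of -0.65, at -0.44 in SW48 and 0.21 in 23132/87. PSME1 had a difference of -0.56, at -0.73 in SW48 and -0.16 in 23132/87. All values are log2 differences on the log2(signal + 1) scale.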

How the results depend on the processing

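Of 42 components, 13 were called in 23132/87, where 23.2% of all genes were lower. The alternatives gave 10 to 19 calls. The 19, all lower, came under median-centred scaling (45.2% of components, against 25% of genes lower). The 10 came without myricone C replicate 2 (23.8%, against 19.7%) or vehicle replicate 2 (23.8%, against 17.6%). In 23132/87 10 components were called lower under all 17. In SW48 14 were called, where 19.2% of all genes were lower. With all 12 libraries in 1 fit 21 were called there, all lower (50% of components, against 22.6% of genes). The count fell to 8 under quantile normalization (15.3% of genes lower), to 9 after rescaling without mitochondrial pseudogenes, 7SL and small nuclear RNA genes (14.7%), to 9 under quantile normalization without myricone C replicate 1, an alternative chosen after seeing the data (16.9%), and to 6, or 14.3% of components, with the replicate block by the numbers in the column names (15.2%). The cause was not tested. PSMA2, PSMA7 and PSME1 were called lower in SW48 under all 18. Leaving out 1 library gave 10 to 14 calls in 23132/87. The 14, without myricone C replicate 1, were 13 lower and 1 higher, PSMG4. In those fits 17.6% to 22.2% of genes were lower. In SW48 leaving out 1 library gave 7 to 14 calls, with 7 without vehicle replicate 3, against 12.4% to 20.1% of genes lower. The difference between lines gave 2 to 4, where 3 passed with all libraries. Of 10252 genes, 831 to 1413 passed in those fits.

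With the replicate number as a block, 12 components were called in 23132/87, 12 in SW48 and 2 for the difference between lines. In those fits 20.3% of genes were lower in 23132/87 and 15.8% in SW48, and 770 of 10252 passed for the difference. Same-numbered libraries did not deviate together (correlations of -0.27 to 0.112 in 23132/87 and -0.175 to -0.0732 in SW48). Libraries with unlike numbers had correlations of -0.209 to 0.359 in 23132/87 and -0.104 to 0.271 in SW48. With 3 same-numbered pairs a line, whether the numbers in the titles pair the libraries cannot be settled. The SW48 myricone C columns are numbered 2 to 4, and 2 of them share a number with a vehicle column, with correlations of 0.152 and 0.271, too few pairs to settle a pairing. With the block by column numbers the SW48 calls of PSMB6, PSMC3, PSMD2 and PSME2 were lost too. Of 66 single-gene calls 28 were lost under at least 1 alternative, and no called change turned its sign.

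Scaling moved the balance of all calls. In SW48 34.6% of called genes were higher, against 46.2% under quantile normalization and 46.4% after rescaling. For the difference between lines the share higher was 41.8%, against 54.5% under quantile normalization and 54.2% under median-centred scaling. The planned DESeq2 alternative was not run because the values are not counts. The unknown depth, 3 libraries a group and the filter at 1 limit what can be called.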
